A study of Arabidopsis thaliana with 24 samples.

Results

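Jasmonate synthesis and its standard read-out were followed through 10 genes of Arabidopsis thaliana, chosen by locus: the 13-lipoxygenase genes LOX2 (AT3G45140), LOX3 (AT1G17420) and LOX4 (AT1G72520), allene oxide synthase AOS (AT5G42650), the allene oxide cyclases AOC1 (AT3G25760) and AOC2 (AT3G25770), OPR3 (AT2G06050), JAR1 (AT2G46370) and the vegetative storage protein genes VSP1 (AT5G24780) and VSP2 (AT5G24770). All 10 were found among the 32833 genes of the count table, 28056 of which had at least 1 read, and all 10 passed the filter on low counts in every comparison. RNA was from whole seedlings 9 days old, of wild type (Col-0) or of the exa1-1 mutant, which is affected in EXA1 (AT5G42950), a gene for a GYF-domain protein. Seedlings had grown on 1/2 MS medium with sucrose, and each treatment lasted 60 min. A salt set held seedlings on 1/2 MS and seedlings with 200 mM NaCl, and a heat set held seedlings at 23 °C and at 39 °C. Each of the 8 groups of genotype and treatment had 3 libraries, 24 in all, made strand-specifically from mRNA and read from both ends on an Illumina instrument. The mutant was 1 allele, with no second allele or complemented line among these groups. The series text calls the replicates independent without saying how cultures were kept apart, so each p-value speaks only of the spread among these libraries, which may be technical.

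Jasmonates are lipid hormones that plants make from the linolenic acid of chloroplast membranes, above all after wounding and insect attack. In the chloroplast a 13-lipoxygenase, AOS and an AOC enzyme act in that order to give OPDA, which OPR3 reduces in the peroxisome, where β-oxidation then yields jasmonic acid. JAR1 joins jasmonic acid to isoleucine, and the conjugate is the form that the receptor COI1 perceives, which leads to the breakdown of the JAZ repressors. Many of the synthesis genes are themselves induced by the hormone, and the VSP genes are commonly used as markers of the response.

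Both pairs of neighbouring copies, AOC1 with AOC2 and VSP1 with VSP2, held 1 copy with a larger rise under salt than the other in both genotypes, so the sequences before their starts are shown. Positions are on TAIR10.1, the RefSeq build of this genome. AOC1 lies on chr3:9403779-9405338 on the plus strand, and AOC2 on chr3:9406669-9408071 on the same strand, 1330 bases further on. VSP2 on chr5:8500468-8502224 and VSP1 on chr5:8507590-8509201 lie on the minus strand with 5365 bases between them. Each line below holds the 300 bases before the annotated gene start, 5′ to 3′ on the gene's strand, with the longest run that both members of a pair share in capitals.
AOC1 (chr3:9403479-9403778, plus strand): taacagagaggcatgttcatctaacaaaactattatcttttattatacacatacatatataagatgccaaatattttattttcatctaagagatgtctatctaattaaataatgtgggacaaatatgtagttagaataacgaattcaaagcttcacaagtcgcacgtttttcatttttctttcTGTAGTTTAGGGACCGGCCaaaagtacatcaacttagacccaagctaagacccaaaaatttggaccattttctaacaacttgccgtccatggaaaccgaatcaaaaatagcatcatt
AOC2 (chr3:9406369-9406668, plus strand): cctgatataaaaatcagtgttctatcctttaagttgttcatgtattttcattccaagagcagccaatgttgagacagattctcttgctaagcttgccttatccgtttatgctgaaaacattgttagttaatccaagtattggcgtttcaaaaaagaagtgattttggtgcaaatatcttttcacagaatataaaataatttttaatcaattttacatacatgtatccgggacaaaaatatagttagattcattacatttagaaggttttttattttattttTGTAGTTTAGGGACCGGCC
VSP1 (chr5:8509202-8509501, minus strand): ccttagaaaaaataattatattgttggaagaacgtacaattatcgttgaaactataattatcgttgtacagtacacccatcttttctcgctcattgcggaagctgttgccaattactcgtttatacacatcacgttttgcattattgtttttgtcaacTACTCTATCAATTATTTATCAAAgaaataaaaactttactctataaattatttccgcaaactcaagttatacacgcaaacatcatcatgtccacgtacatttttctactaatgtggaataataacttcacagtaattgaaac
VSP2 (chr5:8502225-8502524, minus strand): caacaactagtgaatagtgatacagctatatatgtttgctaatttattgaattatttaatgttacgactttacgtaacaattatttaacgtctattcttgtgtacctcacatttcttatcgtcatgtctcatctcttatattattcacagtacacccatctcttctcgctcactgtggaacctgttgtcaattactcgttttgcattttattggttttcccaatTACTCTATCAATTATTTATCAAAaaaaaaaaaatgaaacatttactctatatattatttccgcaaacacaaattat

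The shared run was 19 bases long in the AOC pair, beginning 117 bases before the annotated start of AOC1 and 19 bases before that of AOC2. In the VSP pair it was 23 bases long, beginning 142 bases before the start of VSP1 and 76 bases before that of VSP2. Alignment of the upstream windows gave 67.4% identity for the AOC pair with 122 gap columns and 86.4% for the VSP pair with 174 gap columns. Identity here is over aligned bases and leaves out gap columns. Annotated starts need not be the starts used in these seedlings. The coding sequences were closer, at 90.3% identity with 3 gap columns for AOC1 and AOC2 and 90.4% with 21 gap columns for VSP1 and VSP2. Still, no stretch of 150 bases, the read length, was common to the annotated transcripts of either pair. Their longest common runs were 47 and 54 bases. AOC3 had a longest common run of 73 bases with AOC1 and of 50 with AOC2, again with no common stretch of 150. LOX3 and LOX4 had 81.1% identity and a longest common run of 24 bases. No annotated gene overlapped any of the 10.

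4 short motifs were searched on both strands of the same 300-base windows: the G-box CACGTG, its variant CACATG, the abscisic acid element core ACGTGNC, which can overlap a G-box, and the heat shock element GAANNTTC. CACATG was in the windows of LOX2, LOX3 and JAR1 and in 13.1% of the windows of 27443 protein-coding genes. AOS alone among the 10 had a G-box, which began 6 bases before its annotated start, against 7.09% of all windows. LOX3 had ACGTGNC, against 9.46%, and LOX4 had GAANNTTC, against 11.5%. Neither AOC gene, neither VSP gene and not OPR3 had a match in this window. The windows of LOX2, which had the largest salt rise of the 10, of LOX3, which differed between genotypes in every condition, and of AOS, the member with a G-box, are shown. Their capitals mark the motif matches, none of which overlapped another, and a match describes the letters only.
LOX2 (chr3:16524945-16525244, plus strand): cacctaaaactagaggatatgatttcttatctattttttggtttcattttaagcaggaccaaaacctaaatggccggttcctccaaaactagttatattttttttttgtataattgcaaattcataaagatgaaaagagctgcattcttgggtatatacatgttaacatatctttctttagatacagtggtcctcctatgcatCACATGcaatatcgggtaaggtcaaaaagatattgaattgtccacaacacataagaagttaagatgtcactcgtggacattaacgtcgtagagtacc
LOX3 (chr1:5977023-5977322, plus strand): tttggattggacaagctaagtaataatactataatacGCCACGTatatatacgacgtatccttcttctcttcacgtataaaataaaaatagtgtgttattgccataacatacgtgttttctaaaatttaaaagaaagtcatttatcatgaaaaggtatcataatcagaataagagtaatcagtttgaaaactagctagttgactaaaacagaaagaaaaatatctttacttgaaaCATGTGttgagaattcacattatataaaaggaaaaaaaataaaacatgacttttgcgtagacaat
AOS (chr5:17099596-17099895, minus strand): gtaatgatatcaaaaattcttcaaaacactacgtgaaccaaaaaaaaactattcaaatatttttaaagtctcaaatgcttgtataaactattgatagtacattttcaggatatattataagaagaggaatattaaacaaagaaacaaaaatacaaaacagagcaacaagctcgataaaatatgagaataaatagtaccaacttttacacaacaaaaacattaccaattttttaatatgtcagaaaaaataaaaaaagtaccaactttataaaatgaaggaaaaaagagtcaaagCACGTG

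Libraries held 17600922 to 21557382 assigned reads, and the correlation of log2 CPM (read counts scaled to library size) between libraries of a group was 0.981 to 0.994. EXA1 itself was at 71.4 to 162 CPM in the wild-type libraries and 9.24 to 16.4 CPM in the exa1-1 libraries. As a check of the labelled tissue, green-tissue markers (4 genes) summed to 3653 to 13244 FPKM (fragments scaled to transcript length and library size) and root markers (5 genes) to 137 to 1286 FPKM, against at most 2.91 FPKM for 3 flower markers and at most 8.85 FPKM for 2 seed markers. Of these, the flower marker AP3 had no read in the wild type at 39 °C and the seed marker SESA1 none in the wild type at 23 °C or in exa1-1 on 1/2 MS. CPM in this text are scaled by TMM over all 24 libraries. Heat changed the make-up of the RNA: TMM factors were 0.594 to 0.622 at 39 °C and 1.09 to 1.12 at 23 °C.

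On the FPKM scale, which corrects for length, AOS was the most abundant of the 10 in wild-type seedlings on 1/2 MS, at 39.9 ± 1.01 FPKM (SD, n = 3). OPR3 followed at 29.6 ± 0.476 FPKM, AOC2 at 28.1 ± 1.28, JAR1 at 20.3 ± 1.87, VSP2 at 14.0 ± 0.792, AOC1 at 9.77 ± 0.872, VSP1 at 7.59 ± 0.143 and LOX2 at 3.68 ± 0.196. LOX3 at 1.60 ± 0.177 and LOX4 at 1.51 ± 0.226 FPKM came last, and their libraries overlapped. Between all other neighbours in this order the libraries did not overlap, although AOC2 reached 29.2 FPKM and OPR3 went down to 29.3. With NaCl the wild-type order was led by AOC2 at 101 ± 3.11 FPKM. VSP2 at 79.9 ± 1.05 and AOS at 79.6 ± 0.802 FPKM then overlapped, as did LOX3 (12.7 ± 0.372) with VSP1 (11.4 ± 1.07) and VSP1 with AOC1 (10.7 ± 0.189).

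**Figure D1:**
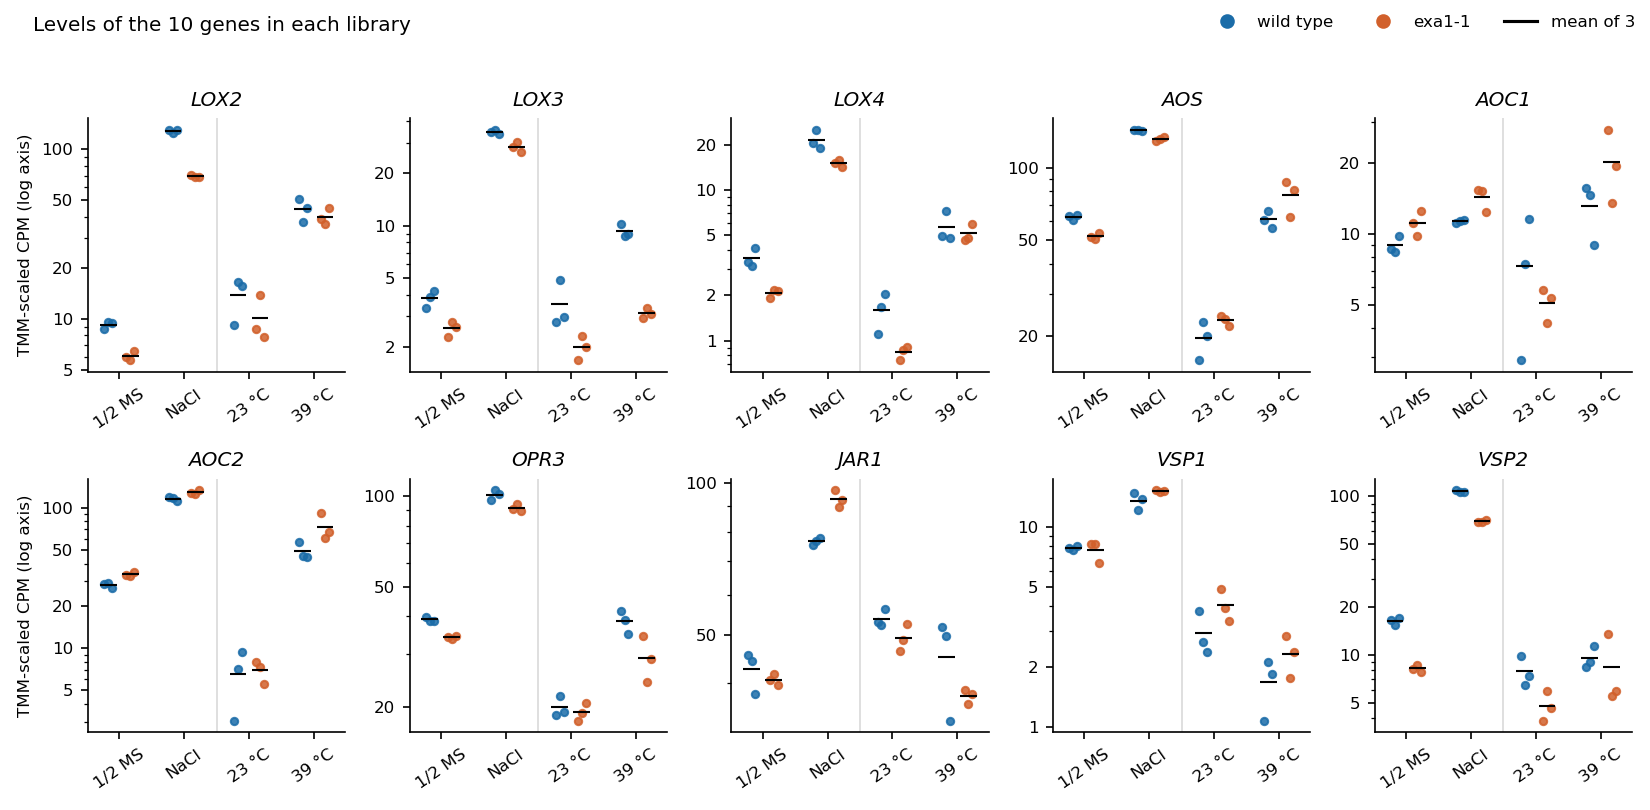
TMM-scaled CPM (log axis, a separate scale per gene) of each gene in the 24 libraries, by treatment; points are libraries and black lines group means of 3. The NaCl groups lie above the 1/2 MS groups for every gene except for overlapping AOC1 libraries in exa1-1, and LOX2 and VSP2 lie lower in exa1-1 than in wild type on 1/2 MS and with NaCl.

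The response to salt asks how far the pathway changed within 60 min of 200 mM NaCl. All 10 genes rose in wild type, by 1.23-fold for AOC1 to 13.4-fold for LOX2, and all 10 rose in exa1-1, by 1.27-fold to 11.2-fold (edgeR quasi-likelihood test, adjusted p below 0.05 for each). Over all 21759 genes tested, 36.9% were higher and 37.6% lower in wild type, and 37.1% were higher and 37.9% lower in exa1-1, the background beside which 10 of 10 stands. The median log2 fold change of the 10 genes was 1.66 in wild type and 1.65 in exa1-1, and that of all genes -0.01 in both. Scaling to library totals in place of TMM, tried after the data were seen, shifted the median of all genes to -0.16 in both genotypes and turned the split of calls in wild type from 8027 higher and 8172 lower to 6288 higher and 10232 lower, and in exa1-1 from 8079 and 8239 to 6367 and 10394. Under that scaling 9 of the 10 genes were called higher in each genotype, the exception being AOC1. In the same contrast the green-tissue markers were higher in 4 of 4 cases and the root markers lower in 5 of 5 in wild type, and 3 of 4 higher and 4 of 5 lower in exa1-1, and their part in the result was not tested. In a bulk sample, fewer cells of a type and less RNA per cell cannot be told apart.

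The lipoxygenase genes, which encode the first enzymes of the pathway, made the largest rises together with VSP2. LOX2, the main lipoxygenase of wounded leaves, was at 8.70, 9.55 and 9.49 CPM in wild type on 1/2 MS and at 130.1, 124 and 130.2 CPM with NaCl. In exa1-1 it was at 5.99, 5.70 and 6.44 CPM on 1/2 MS and at 70.2, 68.8 and 69.1 CPM with NaCl. Every salt-treated library was far above every control library in both genotypes, a log2 difference of 3.75 ± 0.05 (SE) in wild type (adjusted p = 4.9e-126) and 3.49 ± 0.06 in exa1-1 (adjusted p = 1.7e-110). LOX3 and LOX4, a pair of related lipoxygenases that act together in anther development, rose by 3.14 ± 0.09 and 2.56 ± 0.11 in wild type and by 3.44 ± 0.10 and 2.82 ± 0.13 in exa1-1 on the log2 scale.

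AOS, which makes the unstable allene oxide and is encoded by a single gene in this species, was at 60.7 to 63.7 CPM on 1/2 MS and 142 to 144 CPM with NaCl in wild type, a log2 rise of 1.15 ± 0.04, and rose by 1.32 ± 0.04 in exa1-1. The cyclases that follow it responded unequally. AOC2 was at 28.6, 29.3 and 26.7 CPM in wild type on 1/2 MS and at 118.4, 118.2 and 112 CPM with NaCl, a log2 rise of 1.99 ± 0.04 (adjusted p = 1.8e-98). AOC1 was at 8.70, 8.37 and 9.88 CPM on 1/2 MS and at 11.1, 11.4 and 11.4 CPM with NaCl, a log2 rise of 0.29 ± 0.10 (adjusted p = 0.0063). In exa1-1 the AOC1 libraries of the salt and control groups overlapped, and its rise of 0.35 ± 0.09, like that in wild type, lost its call with library totals (log2 0.14, adjusted p = 0.19 in wild type; 0.19, adjusted p = 0.055 in exa1-1), with FPKM and in a fit of all 24 libraries.

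OPR3, the OPDA reductase, rose by 1.33 ± 0.04 in wild type and 1.40 ± 0.04 in exa1-1 (log2). JAR1, which makes the active conjugate, was at 45.6, 44.3 and 38.1 CPM in wild type on 1/2 MS and at 75.3, 76.9 and 78.0 CPM with NaCl. In exa1-1 it was at 40.7, 41.7 and 39.6 CPM on 1/2 MS and at 96.9, 89.8 and 92.5 CPM with NaCl, so that the mutant libraries were the highest with salt and were mixed with the wild type without it. VSP2, whose product is an acid phosphatase toxic to insects, rose by 2.67 ± 0.05 in wild type and 3.05 ± 0.06 in exa1-1, and its neighbour VSP1 by 0.74 ± 0.10 and 0.95 ± 0.10 (log2).

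**Figure D2:**
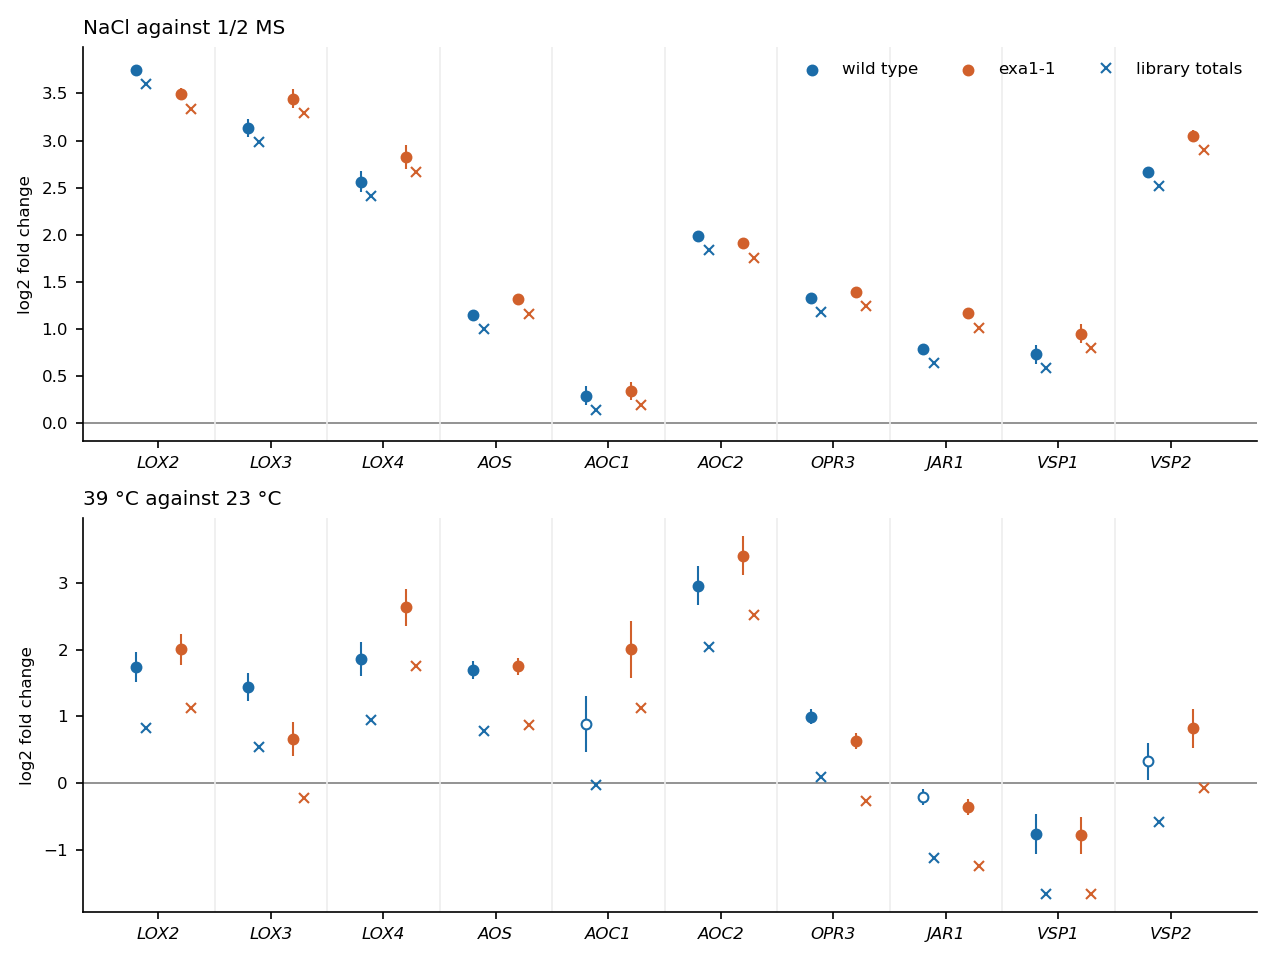
Log2 fold change of each gene under NaCl against 1/2 MS and at 39 °C against 23 °C, in wild type and exa1-1; circles are the TMM-scaled estimates with SE (filled where the adjusted p was below 0.05) and crosses the estimates scaled to library totals. The crosses lie slightly under the circles for salt and well under them for heat, where LOX3, OPR3 and VSP2 in exa1-1 and AOC1 and VSP2 in wild type change sign.

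Comparison of the genotypes on 1/2 MS asks how the mutation bears on the pathway without stress. LOX2, LOX3, LOX4, AOS, OPR3 and VSP2 were lower in exa1-1, AOC1 and AOC2 were higher, and JAR1 and VSP1 passed no threshold, which makes 6 lower and 2 higher of 10. Among all genes 16% were lower and 13.3% higher. The median log2 fold change of the 10 genes was -0.23 and that of all genes 0.00. LOX2 fell by 0.61 ± 0.09 (adjusted p = 2.2e-09), LOX3 by 0.57 ± 0.14 (adjusted p = 0.00076) and LOX4 by 0.75 ± 0.16 (adjusted p = 5.7e-05), with no overlap between libraries.

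AOS on 1/2 MS decreased by 0.26 ± 0.04 and OPR3 by 0.19 ± 0.05 in log2 terms, from 60.7 to 63.7 CPM in wild type to 50.7 to 53.8 CPM in exa1-1 for AOS. AOC2 rose by 0.25 ± 0.05 (adjusted p = 1.3e-05), from 26.7 to 29.3 CPM to 32.9 to 34.9 CPM. AOC1 rose by 0.32 ± 0.10 (adjusted p = 0.0080), but its libraries overlapped and the call was lost without replicate 2 of the wild type (adjusted p = 0.065) or replicate 3 of exa1-1 (adjusted p = 0.15). JAR1, at a log2 difference of -0.07, and VSP1, at -0.04, were not called, although JAR1 was called lower (-0.14, adjusted p = 0.023) without wild-type replicate 3.

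VSP2 was at 16.5, 15.4 and 17.2 CPM in wild type and at 8.20, 8.69 and 7.84 CPM in exa1-1 on 1/2 MS, while VSP1 was at 7.85, 7.69 and 7.98 CPM and at 8.16, 8.23 and 6.56 CPM. The VSP2 libraries of the genotypes were far apart and those of VSP1 were mixed. In FPKM, VSP2 stood at 1.84 ± 0.0709 times VSP1 in wild type (SD, n = 3) and at 0.958 ± 0.0869 times VSP1 in exa1-1, and with NaCl at 7.07 ± 0.616 and 4.08 ± 0.0778 times, with no overlap between genotypes in either condition.

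With NaCl the genotypes differed in 9 of the 10 genes, 6 lower and 3 higher in exa1-1, against 17.2% and 18.6% of all genes. The log2 decrease was 0.87 ± 0.04 for LOX2, 0.26 ± 0.07 for LOX3, 0.49 ± 0.09 for LOX4, 0.13 ± 0.04 for OPR3 and 0.60 ± 0.04 for VSP2. AOS, lower by a log2 difference of only -0.10 ± 0.03 (adjusted p = 0.016), lost its call with library totals (adjusted p = 0.062), with FPKM (adjusted p = 0.085) and without exa1-1 replicate 1 (adjusted p = 0.084). AOC1 (0.37 ± 0.10), AOC2 (0.17 ± 0.04) and JAR1 (0.30 ± 0.04, adjusted p = 2.7e-10) were higher in exa1-1. A fit of all 24 libraries called 4 of the 10 genes on 1/2 MS and 4 with NaCl. Among all genes it called 2760 of 22226 on 1/2 MS and 4052 with NaCl, against 6385 and 7794 of 21759 in the fit of the salt set. On 1/2 MS it lost the calls of LOX2 (adjusted p = 0.069), AOC1 (0.60), AOC2 (0.46) and OPR3 (0.11). With NaCl it lost those of LOX3 (adjusted p = 0.060), AOS (0.39), AOC1 (0.50), AOC2 (0.62) and OPR3 (0.19).

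**Figure D3:**
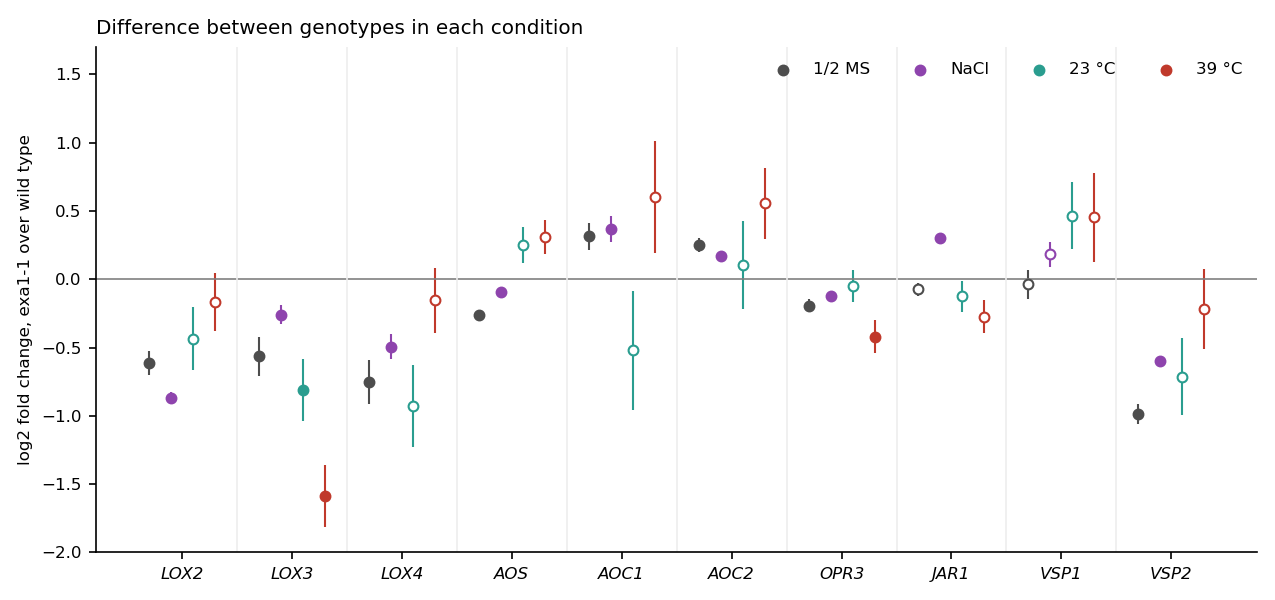
Log2 fold change of exa1-1 over wild type for each gene in the 4 conditions, with SE; filled points had an adjusted p below 0.05. LOX3 was the gene called in all 4 conditions, each time lower in exa1-1, with its largest difference at 39 °C.

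Whether wild type and exa1-1 responded unequally to salt was asked with an interaction term. It was called for 3 of the 10 genes, each with the larger rise in exa1-1. Among all genes, 11.6% were called with a more positive and 9.61% with a more negative response in exa1-1. The differences in log2 response were 0.38 ± 0.09 for VSP2 (adjusted p = 0.00021), 0.37 ± 0.06 for JAR1 (adjusted p = 4.2e-07) and 0.17 ± 0.05 for AOS (adjusted p = 0.0089). For LOX2 it was -0.25 ± 0.10 (adjusted p = 0.052). This passed the threshold with library totals (adjusted p = 0.0499), with FPKM (-0.38, adjusted p = 0.0027) and without replicate 2 or 3 of wild type on 1/2 MS (adjusted p = 0.049 and 0.043), replicate 2 of exa1-1 on 1/2 MS (0.034), replicate 2 of wild type with NaCl (0.034) or replicate 3 of exa1-1 with NaCl (0.048). None of the 3 was called in the fit of all 24 libraries (adjusted p = 0.47 for VSP2, 0.080 for JAR1 and 0.58 for AOS). That fit called 1612 of 22226 genes for this interaction, against 4606 of 21759 in the fit of the salt set. AOS also lost its call without exa1-1 replicate 2 on 1/2 MS (adjusted p = 0.062) and without exa1-1 replicate 3 with NaCl (adjusted p = 0.055).

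Marker and touch genes moved with genotype in these libraries. The green-tissue markers summed to 4623 to 4776 FPKM in wild type and 3653 to 3685 FPKM in exa1-1 on 1/2 MS, with 3 of 4 called lower, and to 6491 to 6702 and 3990 to 4146 FPKM with NaCl, with 4 of 4 called lower. At 39 °C they summed to 11976 to 13244 and 8494 to 10008 FPKM, again with 4 of 4 lower, and at 23 °C the ranges overlapped, with 2 of 4 lower. Touch genes, which respond to handling, summed to 287 to 295 FPKM in wild type and 193 to 197 in exa1-1 on 1/2 MS, with 3 of 4 called lower, for example TCH4 at a log2 difference of -0.74. With NaCl 3 of 4 touch genes were lower and 1 higher, and at 23 °C and 39 °C 2 of 3 tested were lower. Of the 5 root markers 1 was higher and 1 lower on 1/2 MS, where 13.3% of all genes were higher and 16% lower. With NaCl 2 were higher, where the shares of all genes were 18.6% higher and 17.2% lower. None was called at 23 °C, where 3.28% of all genes were higher and 4.26% lower. Nor was any called at 39 °C, where these shares were 7.45% and 8.03%. The same shares apply to the green-tissue and touch counts. The 1 flower marker tested was called only at 23 °C, where it was higher in exa1-1 (log2 1.17) and the flower markers summed to at most 2.91 FPKM. The seed marker CRA1 was lower in exa1-1 on 1/2 MS and higher at 39 °C, where the seed markers summed to at most 4.14 FPKM. The part of any of these in the differences between genotypes was not tested.

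At 23 °C, the unstressed group of the heat set, 1 of the 10 genes was called between genotypes. LOX3 was at 2.78, 4.89 and 2.97 CPM in wild type and 1.68, 2.32 and 2.01 CPM in exa1-1, a log2 difference of -0.81 ± 0.23 (adjusted p = 0.034), against 4.26% of all genes called lower and 3.28% called higher. The ranges did not overlap, but the call was lost with FPKM (adjusted p = 0.081). It was also lost on leaving out wild-type replicate 2 (adjusted p = 0.24), or replicate 1, 2 or 3 of exa1-1 (adjusted p = 0.16, 0.058 and 0.091). LOX4 (-0.93 ± 0.30, adjusted p = 0.063) and VSP2 (-0.71 ± 0.28, adjusted p = 0.14) had no overlap between genotypes either but did not pass the threshold. LOX4 passed it without wild-type replicate 1 at 23 °C (adjusted p = 0.029), and VSP2 in the fit of the 6 libraries alone (adjusted p = 0.012) and without exa1-1 replicate 1 at 39 °C (adjusted p = 0.022). The fit of all 24 libraries called LOX3, LOX4 and VSP2 lower at 23 °C. It called 3924 of 22226 genes there, against 1598 of 21196 in the fit of the heat set.

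At 39 °C, 2 of the 10 genes were lower in exa1-1 and none was higher, against 8.03% and 7.45% of all genes. LOX3 was at 10.3, 8.73 and 8.93 CPM in wild type and 2.93, 3.37 and 3.09 CPM in exa1-1. All wild-type libraries stood well above all mutant libraries, and the log2 difference of -1.59 ± 0.23 (adjusted p = 0.00016) corresponds to a 3.01-fold lower level in exa1-1. Its close relative LOX4 was at 4.97, 7.23 and 4.81 CPM in wild type and 4.69, 4.81 and 5.99 CPM in exa1-1 with overlapping libraries and a log2 difference of -0.15 ± 0.24 (adjusted p = 0.71), and the contrast between the 2 relatives was not tested. OPR3 was lower by a log2 difference of -0.42 ± 0.12 (adjusted p = 0.021), a call lost in the fit of the 6 libraries alone (adjusted p = 0.063) and without wild-type replicate 1 or 2 (adjusted p = 0.092 and 0.074) or exa1-1 replicate 2 or 3 (adjusted p = 0.15 and 0.072). LOX2, lower in exa1-1 in the salt set, gave -0.17 ± 0.21 (adjusted p = 0.64). For VSP2 the difference of -0.22 ± 0.29 rested on exa1-1 replicate 1, at 13.6 CPM beside 5.53 and 5.90 CPM, and was -0.74 (adjusted p = 0.033) without it. AOS (0.33, adjusted p = 0.0088) and AOC2 (0.57, adjusted p = 0.036) were called higher in exa1-1 in the fit of all 24 libraries, and AOC2 also in the fit of the 6 libraries alone (0.54, adjusted p = 0.037). Besides VSP2, 3 genes passed the threshold when 1 library was left out. AOC2 did so (0.55, adjusted p = 0.019) without wild-type replicate 1 at 23 °C, and AOS (0.45, adjusted p = 0.022) without exa1-1 replicate 2 at 39 °C. JAR1 did so (-0.43, adjusted p = 0.0022) without wild-type replicate 3 at 39 °C.

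Heat itself, 39 °C against 23 °C, moved the 10 genes unequally. On the TMM scale 6 were higher and 1 lower in wild type, against 36.6% and 38.6% of all genes, and 8 were higher and 2 lower in exa1-1, against 36.3% and 39.7%. The median of the 10 genes was 1.22 in wild type and 1.29 in exa1-1, and that of all genes -0.06 and -0.09 (log2). Scaled to library totals, the median of all genes was -0.97 in both genotypes, and the split of all calls in wild type went from 7752 higher and 8177 lower to 2590 higher and 15424 lower, and in exa1-1 from 7685 and 8411 to 2885 and 15187. On that scale 5 of the 10 were higher and 2 lower in wild type and 5 were higher and 3 lower in exa1-1, so changes with heat are given on both scales. In the same contrast 3 of 4 green-tissue markers were higher and 1 lower in each genotype (TMM-scaled median 1.99 in wild type and 1.62 in exa1-1). Of the 5 root markers 3 were lower in each genotype and 1 was higher in wild type (median -1.83 and -1.70), and their part in the result was not tested.

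AOC2 rose most with heat. It was at 3.05, 7.12 and 9.34 CPM in wild type at 23 °C and at 56.8, 45.6 and 44.8 CPM at 39 °C, and in exa1-1 at 7.99, 7.34 and 5.60 CPM and at 91.0, 60.8 and 67.2 CPM. The groups were far apart in both genotypes, with a log2 rise of 2.96 ± 0.30 in wild type and 3.41 ± 0.29 in exa1-1, or 2.04 and 2.52 with library totals, called on each scale. AOC1, with libraries from 2.91 to 11.6 CPM at 23 °C in wild type, was not called there (0.88 ± 0.42, adjusted p = 0.079; -0.03 with library totals) but was without wild-type replicate 3 at 23 °C (1.39, adjusted p = 0.0064). In exa1-1 AOC1 rose by 2.01 ± 0.43 (adjusted p = 0.0013; 1.12 with library totals, adjusted p = 0.026).

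LOX2 rose with heat by 1.74 ± 0.22 in wild type and 2.00 ± 0.23 in exa1-1, LOX4 by 1.86 ± 0.25 and 2.63 ± 0.28, and AOS by 1.69 ± 0.13 and 1.75 ± 0.13 (log2). With library totals these were 0.83 and 1.12 for LOX2, 0.95 and 1.75 for LOX4 and 0.78 and 0.86 for AOS, all still called. LOX3 rose by 1.44 ± 0.21 in wild type (0.53 with library totals, adjusted p = 0.025), but in exa1-1 its rise of 0.66 ± 0.25 turned to -0.22 with library totals and to -0.08 with FPKM, and lost its call without exa1-1 replicate 1 at 23 °C (adjusted p = 0.081) or replicate 2 at 39 °C (adjusted p = 0.068). OPR3 rose by 1.00 ± 0.12 in wild type and 0.62 ± 0.12 in exa1-1 on the TMM scale, was not called in wild type with library totals (0.09, adjusted p = 0.49) and was called lower in exa1-1 (-0.26, adjusted p = 0.042).

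JAR1 and the VSP genes took another course with heat. VSP1 decreased by 0.77 ± 0.30 in wild type (adjusted p = 0.025) and 0.78 ± 0.28 in exa1-1 (adjusted p = 0.015), and by 1.67 in both genotypes with library totals. The wild-type call was lost without replicate 1 at 23 °C (adjusted p = 0.13) or at 39 °C (adjusted p = 0.12), and the exa1-1 call without replicate 1 at 23 °C (adjusted p = 0.070) or replicate 2 at 39 °C (adjusted p = 0.078). JAR1 gave -0.21 ± 0.12 in wild type (adjusted p = 0.10; -0.34 and 0.014 without wild-type replicate 1 at 39 °C) and decreased by 0.36 ± 0.12 in exa1-1, and with library totals it was called lower in both (-1.12 and -1.24). VSP2 gave 0.32 ± 0.28 in wild type (adjusted p = 0.31), and its rise of 0.82 ± 0.30 in exa1-1 had overlapping libraries and turned to -0.07 with library totals. It was 0.28 (adjusted p = 0.29) without exa1-1 replicate 1 at 39 °C and lost its call without exa1-1 replicate 1 or 3 at 23 °C (adjusted p = 0.071 and 0.053). None of the 10 interactions of genotype with heat was called by edgeR or by DESeq2, which gave VSP1 no adjusted p, against 0.849% of all genes with a more positive and 0.788% with a more negative response in exa1-1, or 180 and 167 genes, which DESeq2's size factors in edgeR turned to 222 and 130. By edgeR 2 of the 10 had an unadjusted p below 0.05, LOX3 (log2 -0.78 ± 0.33) and OPR3 (-0.37 ± 0.17).

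**Figure D4:**
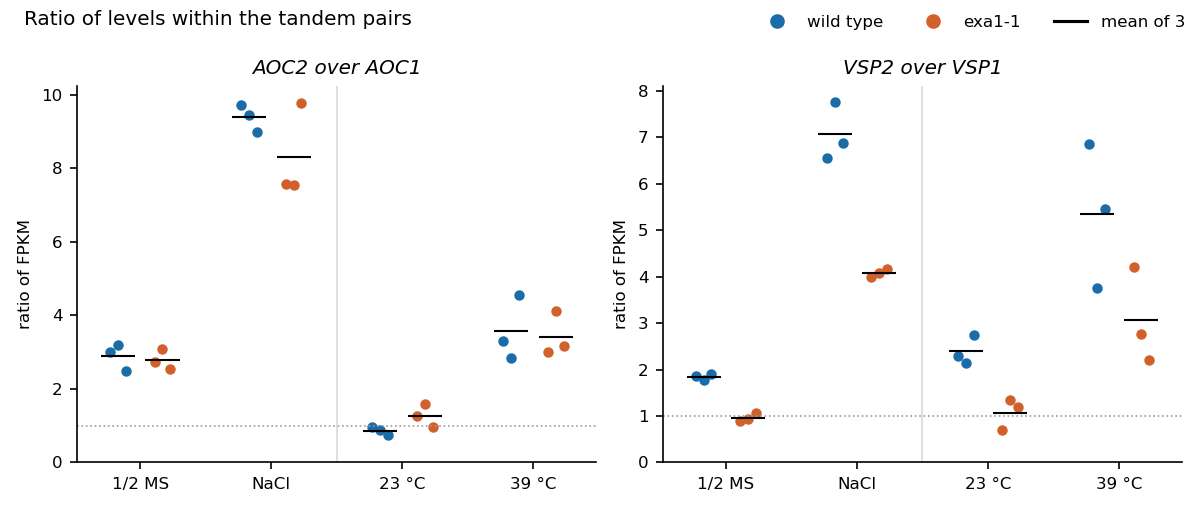
Ratio of FPKM within the neighbouring pairs, AOC2 over AOC1 and VSP2 over VSP1, in each library by treatment; black lines are means of 3 and the dotted line marks equal levels. AOC2 over AOC1 averages 0.855 in wild type at 23 °C and 9.40 with NaCl, and VSP2 over VSP1 is lower in exa1-1 than in wild type on 1/2 MS, with NaCl and at 23 °C without overlap.

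Within the AOC pair the balance lay apart between each stress and its own control, and overlapped between genotypes. Between the sets, the ratios at 39 °C overlapped those on 1/2 MS in both genotypes. In FPKM, AOC2 stood at 2.90 ± 0.375 times AOC1 in wild type on 1/2 MS (SD, n = 3) and 2.78 ± 0.267 times in exa1-1, and at 9.40 ± 0.378 and 8.30 ± 1.29 times with NaCl. At 23 °C the ratio was 0.855 ± 0.112 in wild type and 1.27 ± 0.323 in exa1-1, and at 39 °C it was 3.57 ± 0.888 and 3.42 ± 0.598. The salt and heat libraries lay above their controls in both genotypes, and the genotypes overlapped in all 4 conditions, at 23 °C only just, with 0.958 the highest value of wild type and 0.957 the lowest of exa1-1.

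The unstressed groups of the salt and heat sets, 1/2 MS and 23 °C, differed in most of the 10 genes. The series text describes a single normal condition, 1/2 MS at 23 °C, and the labels give 2 groups for it per genotype. In wild type 6 were lower and 1 higher at 23 °C, against 33.4% and 33.6% of all genes, and in exa1-1 7 were lower and 2 higher, against 33.8% and 33.7%. AOC2 decreased by 2.12 ± 0.26 in wild type and 2.27 ± 0.26 in exa1-1, AOS by 1.68 ± 0.08 and 1.16 ± 0.08, and VSP1 by 1.42 ± 0.17 and 0.91 ± 0.16 (log2). LOX4, OPR3 and VSP2 were lower in both genotypes, and AOC1 in exa1-1 (-1.12 ± 0.39, adjusted p = 0.029). The AOC1 call was lost without exa1-1 replicate 1, 2 or 3 at 23 °C or 1 or 3 on 1/2 MS (adjusted p = 0.053 to 0.092), and in wild type AOC1 was called lower without replicate 3 at 23 °C (-0.80, adjusted p = 0.034). LOX2 in wild type, at 0.57 ± 0.23 (adjusted p = 0.0502), was called without replicate 1 at 23 °C (0.79) or exa1-1 replicate 2 or 3 at 23 °C, and in exa1-1 its call was lost without replicate 1 or 2 on 1/2 MS (adjusted p = 0.063 and 0.074). The rises, JAR1 in both genotypes (0.33 ± 0.06 and 0.28 ± 0.06) and LOX2 in exa1-1 (0.75 ± 0.25), were lost with library totals, which shifted the median of all genes by -0.24 and -0.28 and the split of calls from 7240 higher and 7187 lower to 5153 and 10223 in wild type and from 7265 and 7287 to 4924 and 10700 in exa1-1. The green-tissue markers were higher at 23 °C in 4 of 4 cases in both genotypes (median 1.27 in wild type) and 3 of 4 touch genes were lower (median -1.39 and -1.35). Of the 5 root markers 3 were lower in wild type and 2 in exa1-1, with 1 higher in each. The part of these genes in the result was not tested, and set and treatment label cannot be told apart.

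Between these unstressed groups, a change of the genotype difference was called for AOS among the 10 genes, which was 0.52 ± 0.11 higher at 23 °C relative to 1/2 MS in exa1-1 than in wild type (log2, adjusted p = 0.0044). Among all genes 4.71% were called in that direction and 2.53% in the other, a split of 1015 and 544 genes that became 729 and 759 with library totals. With FPKM the AOS call was lost (adjusted p = 0.056), and without wild-type replicate 1 at 23 °C AOC1, AOC2 and VSP1 were called too (adjusted p = 0.00012, 0.027 and 0.032).

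The rest of the pathway was described with lists of other synthesis genes, turnover genes, perception and transcription genes, JAZ repressors and other jasmonate-responsive genes. With NaCl in wild type, where 36.9% of all genes were higher and 37.6% lower, 13 of 17 other synthesis genes tested were higher and 4 lower, including the acyl-CoA oxidase gene ACX1 (log2 1.82 ± 0.02) and the thiolase gene KAT2 (1.27 ± 0.03) of β-oxidation and the cyclase gene AOC3 (1.18 ± 0.05), while the desaturase gene FAD3 decreased by 0.54 ± 0.03. Of the JAZ genes 12 of 13 were higher and 1 lower, with JAZ5 at 2.80 ± 0.08 and JAZ10 at 1.99 ± 0.06. All 10 other jasmonate-responsive genes were higher (median 3.24), led in adjusted p by ANAC019 (5.22 ± 0.06) and CORI3 (3.22 ± 0.04). The transcription factor gene MYC2 rose by 1.42 ± 0.03 among 7 of 10 perception and transcription genes higher and 2 lower. In exa1-1, beside 37.1% higher and 37.9% lower among all genes, the counts were 12 higher and 4 lower, 11 and 1, 10 and 0, and 6 and 2 in the same order. Among the lipoxygenases and the lyase outside jasmonate synthesis, 1 of 3 was higher and 2 lower in wild type and 1 higher and 1 lower in exa1-1, HPL1 being the higher.

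Turnover genes, whose products oxidise, hydrolyse or sulfate jasmonates and their conjugates, differed between genotypes on 1/2 MS. All 9 tested were lower in exa1-1, beside 16% of all genes (median log2 -0.75, against 0.00 for all genes), and JOX1 was not tested because of low counts. ST2A, the sulfotransferase gene, was at 114 to 121 CPM in wild type and 41.0 to 44.6 CPM in exa1-1, and decreased by 1.45 ± 0.04 (log2). The hydroxylase gene JOX4 was at 34.2 to 36.7 and 12.7 to 14.5 CPM, a decrease of 1.40 ± 0.05, and JOX3 decreased by 1.45 ± 0.09.

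With NaCl against 1/2 MS, 8 of 9 turnover genes were higher and 1 lower in each genotype. Of all genes 36.9% were higher and 37.6% lower in wild type, and 37.1% and 37.9% in exa1-1. In exa1-1 against wild type with NaCl, 6 turnover genes were higher and 1 lower, beside 18.6% and 17.2% of all genes. CYP94B3, whose product oxidises the isoleucine conjugate, went from 11.2 to 13.1 CPM to 177 to 187 CPM in wild type and from 4.29 to 6.02 CPM to 335 to 346 CPM in exa1-1, so that the mutant was lowest without salt and highest with it. The interaction was called for 8 of 9 turnover genes, beside 11.6% and 9.61% of all genes in the 2 directions, each with a more positive response in exa1-1 (median log2 1.05 over the 9, against 0.01 for all genes), among them CYP94B3 (2.11 ± 0.09), JOX3 (1.98 ± 0.10), ST2A (1.54 ± 0.05) and JOX4 (1.37 ± 0.06). Of the JAZ genes 3 had a larger and 1 a smaller rise in exa1-1, JAZ10 (0.86 ± 0.09), JAZ1 (0.71 ± 0.04) and JAZ5 (0.39 ± 0.13) against JAZ2 (-0.24 ± 0.06).

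**Figure D5:**
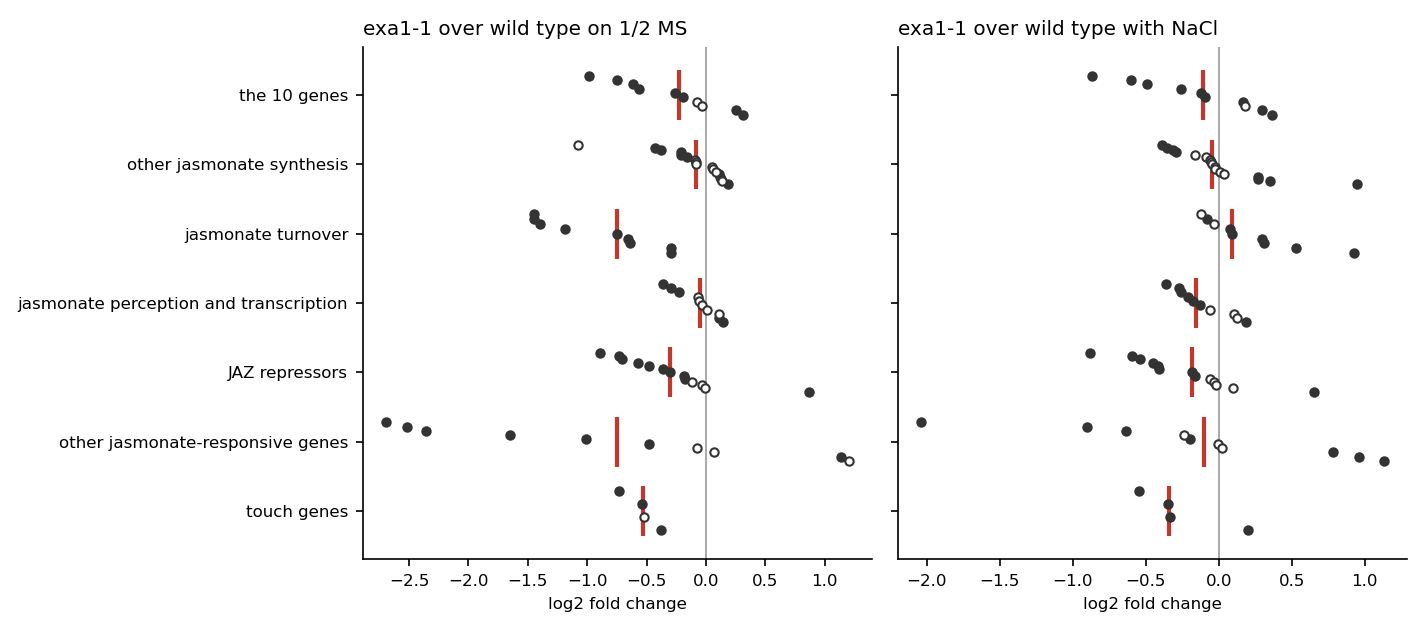
Log2 fold change of exa1-1 over wild type on 1/2 MS and with NaCl for the 10 genes and for each gene tested in 6 further lists; filled points had an adjusted p below 0.05 and red bars are list medians. All 9 turnover genes lie to the left of 0 on 1/2 MS, and their median is -0.75 there and 0.09 with NaCl.

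On 1/2 MS, where 16% of all genes were lower and 13.3% higher in exa1-1, the JAZ genes were lower in 9 of 13 cases and higher in 1, JAZ4 (log2 0.87 ± 0.09), which was also the JAZ gene that decreased with NaCl. Other jasmonate-responsive genes were lower in 6 of 10 cases and higher in 1, CORI3, which was higher in exa1-1 in all 4 conditions (1.14 ± 0.05 on 1/2 MS, 0.78 ± 0.03 with NaCl, 1.28 ± 0.22 at 23 °C and 0.99 ± 0.20 at 39 °C). MYC2 was lower on 1/2 MS (-0.29 ± 0.04) and with NaCl (-0.28 ± 0.03). Other synthesis genes were mixed on 1/2 MS, with 4 of 17 higher and 5 lower. With NaCl they were mixed too, with 4 higher and 4 lower, where 18.6% of all genes were higher and 17.2% lower. The 3 genes of the other lipoxygenase branches were all lower on 1/2 MS, among them LOX1 and LOX5 (-0.18 ± 0.03 and -0.30 ± 0.10).

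At 39 °C against 23 °C, where 36.6% of all genes were higher and 38.6% lower in wild type, the other synthesis genes were higher in 10 of 16 cases and lower in 1 in wild type, with the β-oxidation genes MFP2 (log2 1.03 ± 0.07) and ACX1 (0.85 ± 0.07) among them, while 7 of 10 perception and transcription genes were lower and 3 higher, with MYC4 at -1.58 ± 0.13. JAZ genes split in wild type, with 2 of 11 higher and 3 lower, as did turnover genes, with 2 of 9 higher and 3 lower. These wild-type shares were not above those of all genes. In exa1-1, beside 36.3% higher and 39.7% lower among all genes, 4 of 11 JAZ genes were higher and 6 lower. Of the turnover genes 4 of 9 were higher there and 2 lower. Other synthesis genes were higher in 9 of 16 cases and lower in 2, and perception and transcription genes higher in 2 of 10 and lower in 6. These are TMM-scaled values, from which library totals would subtract about the shift given above. The heat interaction was called for ILL6 (0.79 ± 0.19, adjusted p = 0.042) in the turnover list and for JAZ6 (-1.004 ± 0.23, adjusted p = 0.036) among the JAZ genes.

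Genes most like 3 of the members over the 24 libraries were found by Pearson correlation of log2 CPM, given as a description over libraries that share treatments. For LOX2 the closest were ERD14 (r = 0.968), EULS3 (0.967), PYD1 (0.966), RCI2A (0.962) and HAI1 (0.961). For AOS they were ERD9 (0.980), eIF6A (0.979), LTI78 (0.978), KIN2 (0.976) and KIN1 (0.976), and for VSP2 ESL1 (0.975), RRTF1 (0.970), NAC052 (0.969), ACS6 (0.969) and MSS1 (0.966). KIN1 and KIN2 are near-identical neighbours whose reads the counting could divide uncertainly. Among the members themselves the correlations ran from 0.008 for AOC1 and VSP1 to 0.974 for AOS and AOC2. LOX3 and LOX4 correlated at 0.912 and LOX4 and AOS at 0.931.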

How the data were processed

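Whole-seedling mRNA of 24 libraries was analysed, 3 in each of 8 groups. The authors deposited raw counts per gene and FPKM values, and per the submitters' processing notes the tools included HISAT2 2.0.4 and HTSeq 0.6.1p1 with the TAIR10 genome. The strand setting and the treatment of reads with several matches are not given in the sources used here. The deposited counts held no entry without a gene name, and totals were 17600922 to 21557382 per library.

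Counts were tested with edgeR 4.0.16 in R 4.3.3 (TMM scaling, filterByExpr, robust quasi-likelihood fit, Benjamini-Hochberg adjustment over all genes tested, threshold 0.05). There were 3 fits of 12 libraries with 8 residual degrees of freedom each: the salt set, the heat set and the unstressed groups, for 13 comparisons. Every adjusted p in the text is from such a fit unless an alternative is named, and SE is the log2 fold change divided by the root of the F statistic. All 10 genes are described in every comparison. From each further list (other synthesis, turnover, perception and transcription, JAZ, other responsive, other lipoxygenase branches, touch genes and tissue markers), up to 4 genes per comparison could be named, those with the smallest adjusted p among called genes whose higher group had a mean of 5 CPM or more and whose libraries did not overlap, where for interactions only the adjusted p counted. CYP94B3, ST2A and JOX genes keep their names across comparisons, and ILL6, CRA1 and EXA1 are named as single cases. Members and lists were chosen with earlier results of these data known.

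Alternatives were DESeq2 1.42.0, DESeq2's size factors in edgeR, no filter on low counts, limma 3.58.1 on log2(FPKM + 1) of the deposited FPKM with genes of at least 1 FPKM in 3 libraries, a fit of all 24 libraries together, fits of just the 6 libraries of a comparison, the replicate number as a block, and each library left out. Library totals in place of TMM were added after the data were seen. The scripts were tested on simulated counts. Sequences, positions and motif counts were read from RefSeq TAIR10.1 with Python 3.11.15 and Biopython 1.88; the deposited tables hold no coordinates, and all 10 loci matched the RefSeq gene table.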

Additional observations from a re-analysis of the deposited data

Results flagged for a closer look

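The response to NaCl differed between genotypes, by the test of the interaction, for 3 of the 10 genes. Among all genes 11.6% were called with a more positive and 9.61% with a more negative response in exa1-1. In the fit of all 24 libraries none of the 3 was called. The log2 response of exa1-1 minus that of wild type was 0.17 for AOS, 0.37 for JAR1 and 0.38 for VSP2. Among turnover genes it was 1.54 for ST2A, 2.11 for CYP94B3, 1.37 for JOX4 and 1.98 for JOX3, and among JAZ genes 0.71 for JAZ1, 0.86 for JAZ10, 0.39 for JAZ5 and -0.24 for JAZ2. Between the unstressed groups, the change from 1/2 MS to 23 °C differed by 0.52 for AOS. The heat response differed by 0.79 for ILL6 and by -1.004 for JAZ6. These flags rest on the tested difference, and their causes were not tested.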

How the results depend on the processing

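The number of the 10 genes called moved by more than 1.5 times mainly when all 24 libraries shared 1 fit: 4 on 1/2 MS (8 as reported), 4 with NaCl (9), 3 at 23 °C (1), 4 at 39 °C (2) and 0 for the salt interaction (3). Calls among all genes moved too. That fit called 2760 of 22226 genes on 1/2 MS (6385 of 21759 as reported) and 4052 with NaCl (7794). It called 3924 at 23 °C (1598 of 21196 as reported), 5685 at 39 °C (3280) and 1612 for the salt interaction (4606). Of the 10 genes, the genotype comparison at 23 °C called 0 with FPKM and 2 with the 6 libraries alone. Among all genes these settings called 1519 of 19770 and 3216 of 20763. With 1 library left out it called 0 to 2 of the 10 at 23 °C and 1 to 3 at 39 °C. For the unstressed interaction the count was 0 with FPKM (1069 of 20397 among all genes) and 1 to 4 with 1 left out. Among values called as reported or under the alternative, signs reversed for heat in exa1-1, in LOX3 (-0.22 with library totals, -0.084 with FPKM), OPR3 (-0.26 and -0.25) and VSP2 (-0.068 and -0.11). Of 1005 values for single genes under other settings, 949 kept their side of the threshold, 32 lost the call, 18 gained it and 6 reversed; 9 of the 949, none of them called, changed sign, among them AOC1 and VSP2 with heat in wild type with library totals (-0.033 and -0.58) and VSP2 with FPKM (-0.47). Of 1560 with 1 library left out the numbers were 1510, 29, 21 and 0, with 26 uncalled sign changes. Same-numbered libraries were not treated as pairs. Their deviations from group means correlated at -0.054 to 0.123 in the heat set, over 0.1 in 1 of 18 pairs, and at most 0.037 in the other sets. Whether same-numbered libraries shared a culture or batch cannot be told from these correlations. The replicate block changed 1 call, LOX2 at 23 °C against 1/2 MS in wild type (0.55, adjusted p = 0.012). The 6 libraries alone were not run for interactions, LOX4 did not pass the FPKM filter in the heat set, and the cause of each change was not tested. Depth limits low genes such as LOX4 at 23 °C, with 15 to 48 counts per library, and VSP1 at 39 °C, with 13 to 34.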
